A study of Mus musculus with 8 samples.

Results

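Complement is a cascade of plasma proteins that tags microbes and damaged cells and can open pores in their membranes. It starts by antibody-bound C1 (classical pathway), by lectins that bind sugars (lectin pathway) or by slow spontaneous turnover of C3 (alternative pathway), and all routes meet at C3, followed by the terminal proteins that build the pore. Hepatocytes make most of the circulating components, whereas C1q, properdin and the receptors come mainly from macrophages and other myeloid cells. The genes described here are 39 genes of a complement list (members) chosen by symbol, from C1q to the terminal proteins, regulators and receptors. The plasma amidase Pglyrp2 is counted among them though it is no part of the cascade. Of the 39 symbols 37 had a row among the 15210 genes of the table. No row was used for C1s, an older symbol of C1s1, or for Cfd, which encodes factor D. Genes were tested where 4 libraries or more reached a value of 1, which left 36 members among 12008 tested genes and dropped C7.

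The study compared livers of female F1-TKm30 mice that received MOCA, short for 4,4'-Methylenebis(2-chlorobenzenamine), an aromatic amine used to harden polyurethane, at 0.05% for 4 weeks (n = 4 mice) with livers of female F1-TKm30 mice that received none (control, n = 4 mice). How MOCA was given is not stated in these sources. All 8 mice, controls included, are on the immunodeficient NOG background, which is known to lack B, T and natural killer cells, and all carry HSVtk mutant clone 30, a viral thymidine kinase driven in liver by the transthyretin enhancer and promoter. The labels give an age of 17 or 21 weeks without tying it to a mouse, and the treatment label names C57BL where the strain label names F1-TKm30.

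Each mouse gave 1 RNA library from whole liver. Libraries held 15024945 to 15970453 reads in MOCA mice and 16077424 to 17101844 reads in control mice, so each MOCA library was shallower than each control library; the part of depth in the results was not tested. Values are TMM-scaled CPM, that is, reads relative to library size after the authors' scaling between libraries, and 1 read was worth 0.0581 to 0.0648. Fold changes come from limma on log2(value + 1), MOCA over control, a scale on which changes of low genes look smaller. A gene is called when its Benjamini-Hochberg adjusted p over all 12008 genes is under 0.05. Over all genes 48 were higher in MOCA livers (0.4%) and 32 were lower (0.266%), against 132 and 39 after scaling all columns to 1 sum. The 9 hepatocyte markers with a row summed to 89787 to 102673 in MOCA and 103106 to 122959 in control livers. Alb and Trf weigh most in that sum. The groups overlapped for Alb and did not for Trf. Markers of B and T cells were near 0, with 2 of 8 listed and summing to at most 1.83 in MOCA and 1.68 in control livers.

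C4b of the classical pathway and Pglyrp2, an enzyme listed beside the cascade, fell in MOCA livers relative to control livers, no member rose, and 34 of the 36 tested members did not pass the test. The 2 lower members are 5.56% of those tested, against 0.266% of all tested genes that were lower, and 0.4% of all tested genes were higher. Groups did not overlap for 10 members. All 4 MOCA values lay below all 4 control values in 9 members (25.0%), against 4.96% of all tested genes: C1ra, C1s1, C4b, C3, Hc, Cfi, Serping1, Vtn and Pglyrp2. All 4 MOCA values lay above all control values in 1 member, C3ar1, against 5.5% of all genes. An unadjusted limma p under 0.05 was found for 16 members on the lower side, where 8.05% of all genes had one, and for 1 member on the higher side, where 9.42% had one. The median log2 fold change of the tested members was -0.13 and that of all tested genes 0.01, and 63.9% of members and 48.9% of all genes had a negative one. The members were chosen by name with earlier results of these data known. Their levels are also not independent of each other, so these shares are descriptions. With fewer mice the counts changed: 2 members were called without MOCA replicate 1, 1 without MOCA replicate 3, MOCA replicate 4 or control replicate 1, and 0 without MOCA replicate 2 or control replicates 2, 3 or 4. Without control replicate 1, 14 members lay below all remaining control values, against 8.40% of all genes. The members with all MOCA values above all control values numbered 2 without MOCA replicate 3, against 8.12% of all genes, and 2 without control replicate 1, against 8.37% of all genes.

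**Figure D1:**
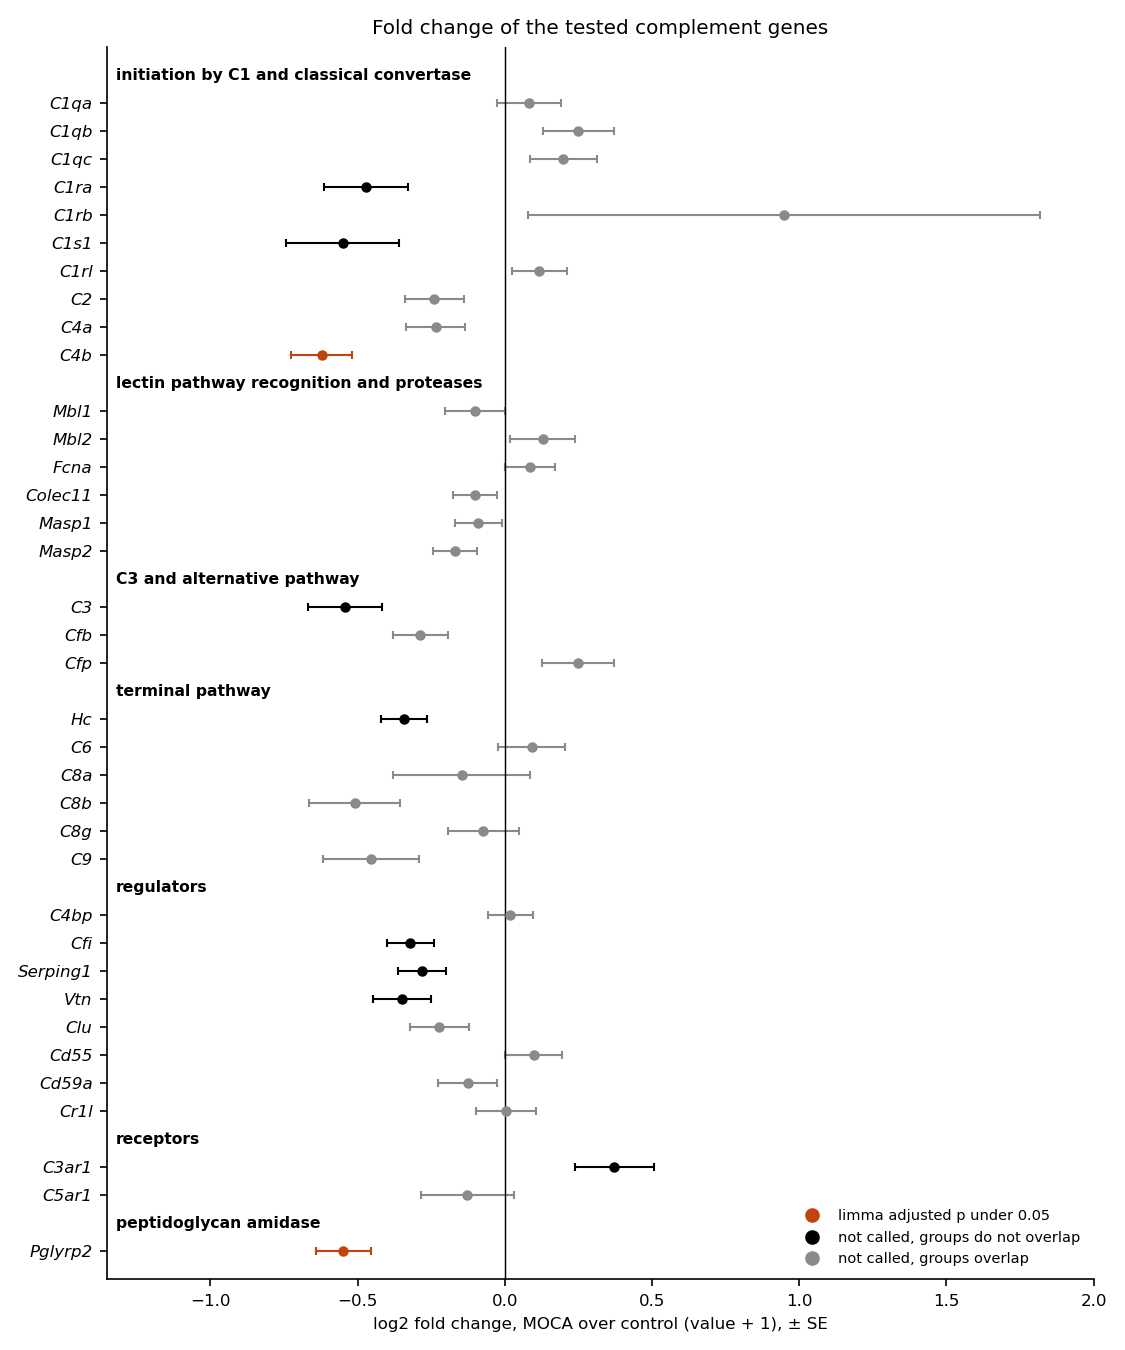
Fold change of the 36 tested members, Pglyrp2 among them, which is listed beside the cascade. The horizontal axis is the limma log2 fold change (MOCA over control, pseudocount 1), with bars for the SE (n = 4 mice each), and genes are grouped by role; C4b (-0.62) and Pglyrp2 (-0.55) are the called genes, and C1rb has the widest bar (SE 0.87).

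The number of members called differed between tools. On the whole reads recovered from the table, edgeR's quasi-likelihood test called 3 members lower, C4b, C3 and Pglyrp2, where it called 0.291% of all genes lower. DESeq2 called 9 members lower, C1ra, C4b, C3, Cfb, Hc, Cfi, Serping1, Vtn and Pglyrp2, where it called 1.69% of all genes lower. Neither tool called a member higher, but DESeq2 gave no adjusted p for C1rb (DESeq2 log2 fold change 2.98), which was high in 1 MOCA mouse only.

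Per length of transcript, the members spanned 9017-fold in control livers. C3 stood highest, at 1946 ± 82.4 per kb in MOCA and 2839 ± 199 in control livers (SD, n = 4 each). It was followed by the regulators Vtn (1026 ± 46.4 in MOCA and 1311 ± 140 in control livers) and Clu (622 ± 30.4 in MOCA and 729 ± 87.9 in control livers). C3 alone took 0.975% to 1.06% of all reads in MOCA and 1.33% to 1.504% in control livers, without overlap. The 37 members together took 2.06% to 2.21% in MOCA and 2.52% to 2.96% in control livers. C3 weighs most in that sum, with 47.4% to 49.5% of the member reads in MOCA and 50.8% to 53.0% in control livers. The lowest member was C7, at 0.410 ± 0.202 per kb in MOCA and 0.315 ± 0.0520 in control livers. Between the extremes, neighbours in the order were often closer than their spread: the 3 C1q chains, Fcna, Masp1, Colec11 and Cd59a all lay between 20.2 and 30.7 per kb in MOCA and between 21.6 and 31.2 in control livers.

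**Figure D2:**
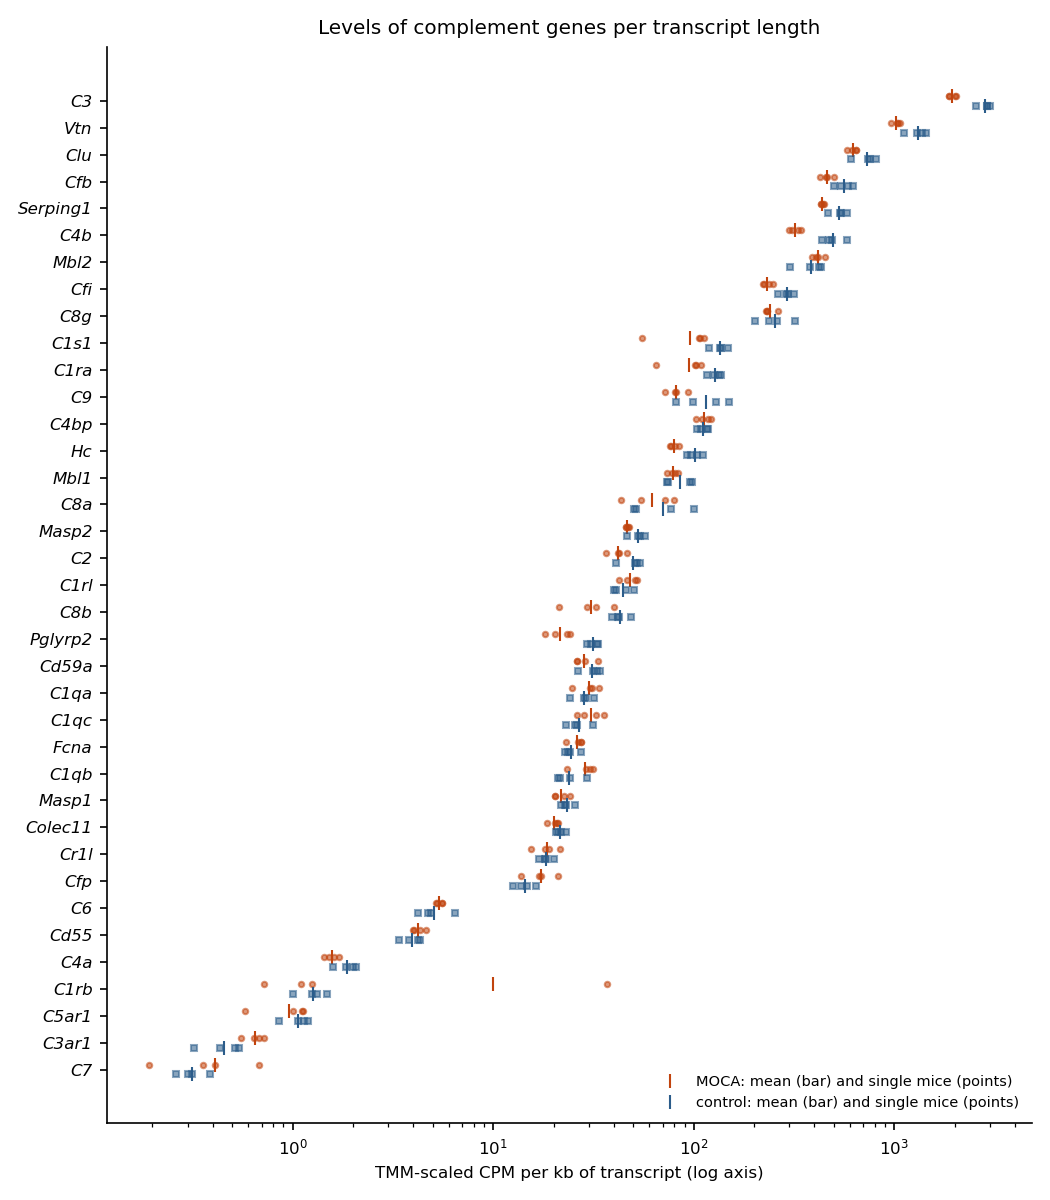
Levels of the 37 members per transcript length. The log axis gives TMM-scaled CPM per kb of 1 GENCODE transcript per gene, with bars for the mean and points for single mice; C3 is the highest gene, C7 the lowest in control livers, and 1 MOCA mouse lies far to the right for C1rb.

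C4b encodes complement C4, which C1s and the lectin proteases cleave so that it can form the C3 convertase with C2. Its level was 1781, 1851, 1663 and 1605 in MOCA replicates 1 to 4, against 2357, 2647, 2540 and 3122 in control replicates 1 to 4. The highest MOCA mouse lay below the lowest control mouse. C4b averaged 1725 ± 111 in MOCA and 2666 ± 327 in control livers, 35.3% lower, with a log2 fold change of -0.62 (SE 0.10, limma adjusted p = 0.0270). The gene lies on mm10 chromosome 17, from 34728139 to 34743902, in the major histocompatibility region with C2 and Cfb. The call did not hold in every subset of mice: the limma adjusted p was 0.0515, 0.0668 and 0.0688 when MOCA replicate 2, 3 or 4 was left out and 0.0616, 0.0874 and 0.0724 when control replicate 2, 3 or 4 was left out, while the log2 fold change stayed between -0.68 and -0.54. With the replicate number as a block the adjusted p was 0.0904. In these bulk samples fewer hepatocytes and less RNA per hepatocyte cannot be told apart.

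C4a, the neighbouring copy of C4b known in mice as sex-limited protein and listed as a transcribed pseudogene in RefSeq's GRCm38.p6, was far lower. It averaged 8.40 ± 0.585 in MOCA and 10.1 ± 1.10 in control livers (SD, n = 4 each; log2 fold change -0.23, SE 0.10, adjusted p = 0.260), with overlapping groups. The transcripts of C4b and C4a are identical at 96.1% of aligned bases, and 35.2% of the 50-base stretches of C4b occur in C4a, so that reads could be shared between them and the C4a value is uncertain. C2, the protease of the classical convertase, averaged 111 ± 11.01 in MOCA and 131 ± 15.3 in control livers (log2 fold change -0.24, SE 0.10, adjusted p = 0.252). Its groups overlapped through control replicate 1, at 108, which lay below 3 of the 4 MOCA mice.

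Pglyrp2 encodes N-acetylmuramoyl-L-alanine amidase, a plasma enzyme of hepatocytes that cuts bacterial peptidoglycan. It is no part of the cascade itself and is listed beside it. Its level was 68.3, 57.2, 51.2 and 65.9 in MOCA replicates 1 to 4, against 86.2, 92.4, 83.1 and 93.4 in control replicates 1 to 4. The groups did not overlap. Pglyrp2 averaged 60.7 ± 7.89 in MOCA and 88.8 ± 4.96 in control livers, 31.6% lower, with a log2 fold change of -0.55 (SE 0.09, limma adjusted p = 0.0273). The adjusted p was 0.0688 without MOCA replicate 2, 0.0609, 0.0646, 0.0666 and 0.0863 without control replicates 1, 2, 3 and 4 in turn, 0.0519 with eBayes without trend and 0.0518 with the replicate number as a block.

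C3, the protein on which all activation routes meet, was the most abundant member and was not called by limma. Its level was 10444, 10269, 9677 and 9595 in MOCA replicates 1 to 4, against 13094, 14878, 14924 and 15424 in control replicates 1 to 4. The highest MOCA mouse lay well below the lowest control mouse. C3 averaged 9996 ± 423 in MOCA and 14580 ± 1021 in control livers, 31.4% lower, with a log2 fold change of -0.54 (SE 0.13, limma adjusted p = 0.0726). The threshold was passed with edgeR (adjusted p = 0.0300), DESeq2 (adjusted p = 3.69e-10), eBayes without trend (adjusted p = 0.0218), robust eBayes (adjusted p = 0.0166), a filter on a mean of at least 5 (adjusted p = 0.0377) and columns scaled to equal sums (adjusted p = 0.0389). It was missed under every other setting run, among them no filter on low values (adjusted p = 0.193), the replicate block (adjusted p = 0.217) and leaving out each mouse in turn (adjusted p between 0.0712 and 0.210), so that the alternatives ranged from 3.69e-10 to 0.217. Relative to Alb, which encodes albumin, C3 was 0.158 to 0.168 in MOCA and 0.198 to 0.255 in control livers, without overlap. This ratio uses the same C3 values and is not a separate observation.

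**Figure D3:**
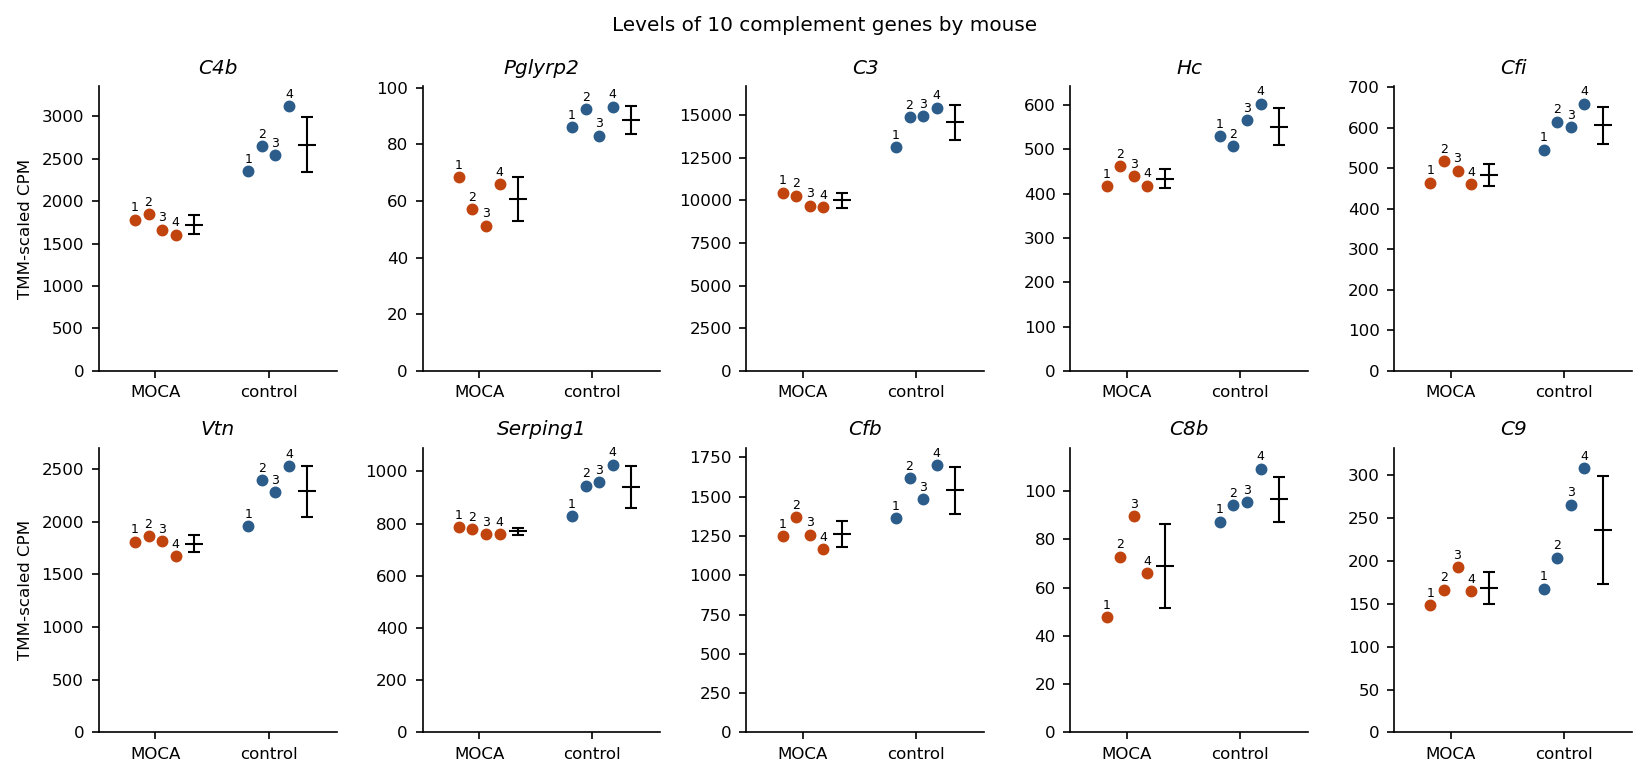
Levels of 10 members by mouse, Pglyrp2 among them, which is listed beside the cascade. Each panel gives TMM-scaled CPM from 0, with a numbered point per mouse (the number is the replicate) and the mean ± SD of 4 mice beside it; in C4b, Pglyrp2, C3, Hc, Cfi, Vtn and Serping1 no MOCA mouse reaches the lowest control mouse, whereas Cfb, C8b and C9 overlap.

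Promoter windows of C3 and Pglyrp2, chosen after their values were seen, are shown as the sequence around the starts of members whose groups did not overlap; Pglyrp2 passed the test and C3 did not. RefSeq's windows hold 300 bases, from 250 before to 50 after an annotated start site. C4b had no window in the table. Capitals mark matches on either strand to TTNNGNAA, the core that C/EBP proteins bind, or to GTTAAT, a half-site of HNF1, and no match overlaps another in these windows. The C3 window (GRCm38.p6, chr17:57228087-57228386, minus strand) and the Pglyrp2 window (GRCm38.p6, chr17:32420926-32421225, minus strand) read, 5′ to 3′:
C3: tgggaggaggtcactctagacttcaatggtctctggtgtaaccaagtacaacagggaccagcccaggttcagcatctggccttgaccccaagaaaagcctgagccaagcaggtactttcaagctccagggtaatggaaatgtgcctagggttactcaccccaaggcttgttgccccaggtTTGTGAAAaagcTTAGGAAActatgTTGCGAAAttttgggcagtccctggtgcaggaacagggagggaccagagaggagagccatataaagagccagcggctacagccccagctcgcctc
Pglyrp2: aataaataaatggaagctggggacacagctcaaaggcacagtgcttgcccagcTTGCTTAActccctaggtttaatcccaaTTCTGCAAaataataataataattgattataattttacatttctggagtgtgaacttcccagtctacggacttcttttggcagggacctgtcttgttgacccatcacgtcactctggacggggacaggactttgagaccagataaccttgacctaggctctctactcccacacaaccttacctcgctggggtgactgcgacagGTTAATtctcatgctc
The C3 window holds 3 C/EBP-like matches, at 70, 58 and 45 bases before the start site. The Pglyrp2 window holds 2, at 197 and 169 bases before its annotated start, with an HNF1 half-site at position 35 after that start. That start lies inside the RefSeq gene record of Pglyrp2 (chr17:32412459-32424219), not at the record's 5′ end. The Pglyrp2 distances therefore do not run from the 5′ end of the gene record. Among the 28 members with a window, TTNNGNAA occurred in 15 (53.6%), against 44.1% of 27025 genes. GTTAAT occurred in 10 members (35.7%), against 8.24% of genes, and TTCNNNGAA, the core bound by STAT proteins, in 7 (25.0%), against 9.55% of genes. C/EBP, HNF1 and STAT proteins are known regulators of liver secretory genes, and a match is a description of letters, not a bound site.

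In the alternative pathway, Cfb encodes factor B, the protease that pairs with C3b. Its level was 1249, 1369, 1259 and 1165 in MOCA replicates 1 to 4, against 1364, 1617, 1483 and 1700 in control replicates 1 to 4. The groups touched at 1 point only, where MOCA replicate 2 lay just above control replicate 1. The log2 fold change was -0.29 (SE 0.09, limma adjusted p = 0.166; DESeq2 adjusted p = 0.0379). Cfp, which encodes properdin, the stabiliser of the alternative convertase, averaged 28.2 ± 4.85 in MOCA and 23.5 ± 2.59 in control livers (log2 fold change 0.25, SE 0.12, adjusted p = 0.319).

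Classical activation begins with the enzymes C1r, which activates itself, and C1s, which C1r activates and which then cuts C4 and C2. Mice carry a pair of each: C1ra, C1s1, C1rb and C1s2 lie in that order on mm10 chromosome 6, from 124512621 to 124636085. C1ra was 193, 323, 305 and 303 in MOCA replicates 1 to 4, against 347, 401, 375 and 408 in control replicates 1 to 4. C1s1 was 163, 331, 316 and 314 in MOCA replicates 1 to 4, against 352, 401, 404 and 437 in control replicates 1 to 4. In both genes the groups did not overlap, and MOCA replicate 1 lay far below the other 3 MOCA mice. The log2 fold change was -0.47 for C1ra (SE 0.14, limma adjusted p = 0.144) and -0.55 for C1s1 (SE 0.19, limma adjusted p = 0.181). Without MOCA replicate 1 it was -0.30 for C1ra (adjusted p = 0.134) and -0.31 for C1s1 (adjusted p = 0.141), which moves both by over 1.5 times.

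C1rb stood apart in a single mouse. It was 89.8 in MOCA replicate 1 (1411 reads) and 3.03, 1.75 and 2.69 in MOCA replicates 2, 3 and 4, against 2.44, 3.03, 3.21 and 3.60 in control replicates 1 to 4. The other 7 libraries held 27 to 60 reads, so that 1 mouse stood alone. By its distance from the nearest of the other 7 libraries, C1rb in MOCA replicate 1 ranked 1 of 12008 tested genes for that mouse. C1s1 ranked 11, C1s2 19 and C1ra 26, each as the lowest of the 8 values. C1rb made up 31.7% of the summed C1ra and C1rb in that mouse, and 0.570% to 0.930% in the other MOCA and 0.698% to 0.874% in the control mice. The fitted C1rb log2 fold change of 0.95 (SE 0.87, limma adjusted p = 0.615) rests on that mouse and turned to -0.23 (adjusted p = 0.523) without it.

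The sum of C1ra and C1rb set MOCA replicate 1 much less apart: it was 283, 326, 307 and 305 in MOCA replicates 1 to 4, against 349, 404, 379 and 412 in control replicates 1 to 4. C1s1 relative to that sum was 0.577 in MOCA replicate 1 and 1.02 to 1.03 in the other MOCA mice, against 0.992 to 1.07 in control mice. C1s2, a near copy of C1s1 outside the member list, was 19.98, 37.4, 38.6 and 35.1 in MOCA replicates 1 to 4, against 43.6, 46.9, 43.3 and 48.5 in control replicates 1 to 4. C1s2 and C1s1 kept a like ratio in all mice, 0.112 to 0.122 in MOCA and 0.107 to 0.124 in control livers. Of the genes near this stretch, Pex5 and C1rl upstream and Lpcat3 downstream were within the range of the other 7 libraries, whereas Emg1, also nearby, was lowest in that mouse, at 22.6 against 24.4 to 30.7 in the other 7. C1rl, a C1r-like protease, averaged 145 ± 13.2 in MOCA and 133 ± 14.5 in control livers (log2 fold change 0.12, SE 0.09, adjusted p = 0.552). No genotype at this stretch is given in the labels, and its part in these values was not tested.

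**Figure D4:**
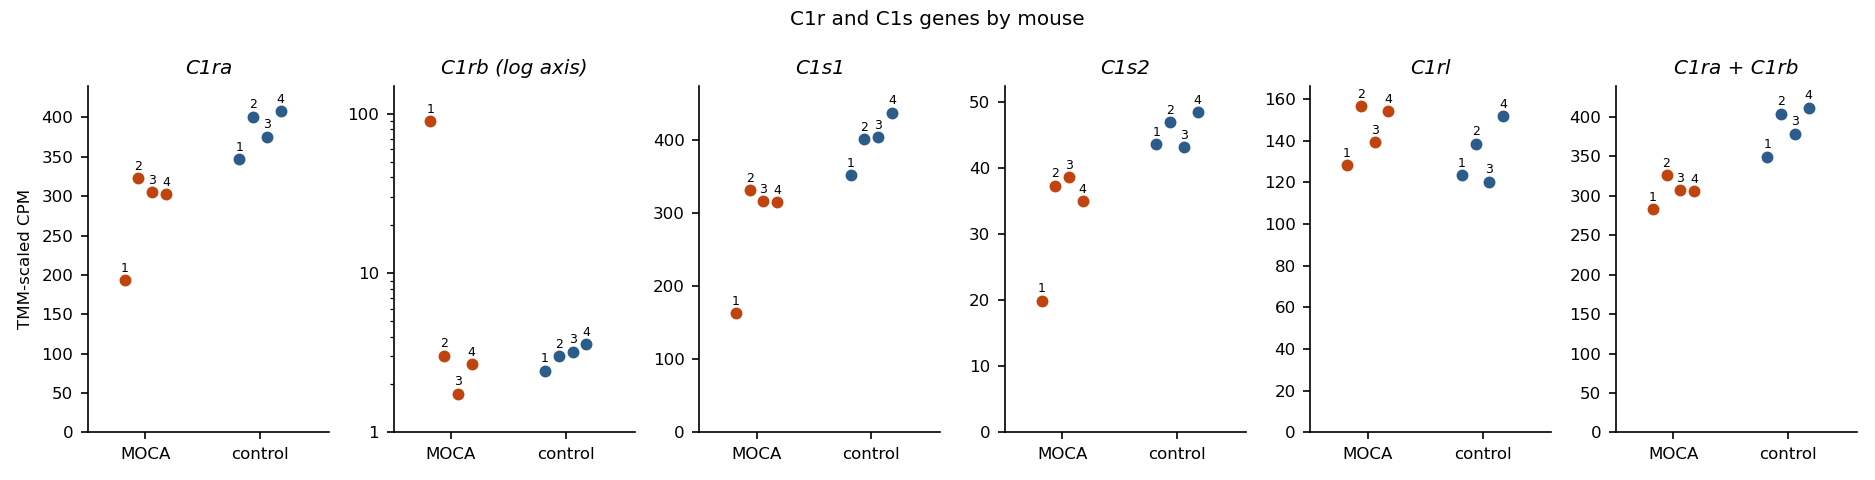
C1r and C1s genes by mouse. Panels give TMM-scaled CPM (log axis for C1rb, from 0 elsewhere) with a point per mouse numbered by replicate; MOCA replicate 1 is at 89.8 for C1rb and lowest for C1ra, C1s1 and C1s2, and lies nearer the other MOCA mice in the sum of C1ra and C1rb.

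The coding sequences of C1ra and C1rb are identical at 98.0% of 2118 aligned bases, and 59.7% of the 50-base stretches of C1ra occur in C1rb. The split of reads between them is therefore uncertain, as it is for C1s1 and C1s2, which are identical at 95.7% of bases. The start regions of C1ra (GRCm38.p6, chr6:124512371-124512670, plus strand) and C1rb (GRCm38.p6, chr6:124570180-124570479, plus strand) are shown to let the copies be compared. Capitals mark bases that are identical in a local alignment of the windows, which run 5′ to 3′:
C1ra: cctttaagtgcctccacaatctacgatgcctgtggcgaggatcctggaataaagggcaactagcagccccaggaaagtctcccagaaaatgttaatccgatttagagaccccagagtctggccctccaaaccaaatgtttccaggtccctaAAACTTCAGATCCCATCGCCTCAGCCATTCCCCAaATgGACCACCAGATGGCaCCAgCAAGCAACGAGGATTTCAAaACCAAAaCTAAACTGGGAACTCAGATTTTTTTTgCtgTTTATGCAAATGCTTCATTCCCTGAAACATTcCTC
C1rb: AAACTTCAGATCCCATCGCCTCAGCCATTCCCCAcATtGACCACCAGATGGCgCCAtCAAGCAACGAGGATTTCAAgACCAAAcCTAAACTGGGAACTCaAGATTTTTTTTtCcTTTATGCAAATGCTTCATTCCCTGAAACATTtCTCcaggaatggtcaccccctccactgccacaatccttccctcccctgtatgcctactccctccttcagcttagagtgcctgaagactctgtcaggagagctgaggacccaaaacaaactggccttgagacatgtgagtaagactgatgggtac
The last 149 bases of the C1ra window align with the first 149 bases of the C1rb window, with 139 identical bases, 9 mismatches and 2 gap bases, and the shared stretch holds the annotated start of C1ra, whereas that of C1rb lies past its end. Both windows hold the same C/EBP-like match (TTATGCAA) and the same STAT-like match (TTCCCTGAA) within the shared stretch. C1ra holds 2 further C/EBP-like matches there, TTCCCCAA and TTTCAAAA, and C1rb has neither. The 151 bases at the start of the C1ra window, which include a GTTAAT match, lie before the shared stretch. That stretch begins at base 1 of the C1rb window, so a counterpart near C1rb would lie outside the window and was not looked for.

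The 3 chains of C1q, the recognition unit of C1, are encoded side by side on chromosome 4 and are known as products of macrophages. C1qa averaged 31.3 ± 3.94 in MOCA and 29.4 ± 3.35 in control livers. C1qb averaged 31.1 ± 3.89 in MOCA and 26.1 ± 4.21 in control livers, and C1qc 37.0 ± 5.05 in MOCA and 32.1 ± 4.28 in control livers (SD, n = 4 each). The groups overlapped for each chain, with log2 fold changes of 0.08 (SE 0.11, adjusted p = 0.748), 0.25 (SE 0.12, adjusted p = 0.313) and 0.20 (SE 0.11, adjusted p = 0.394). The 12 Kupffer cell and macrophage markers, all listed, summed to 753 to 906 in MOCA and 782 to 900 in control livers. The largest of them, Slc40a1, averaged 306 ± 10.8 in MOCA and 378 ± 72.7 in control livers and weighs most in that sum. Of the 12 markers, 8 had a positive and 4 a negative fold change, with a median log2 fold change of 0.13. None of them was called by limma, edgeR or DESeq2. An unadjusted limma p under 0.05 was found for 1 on the higher and 1 on the lower side, against 9.42% and 8.05% of all genes.

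**Figure D5:**
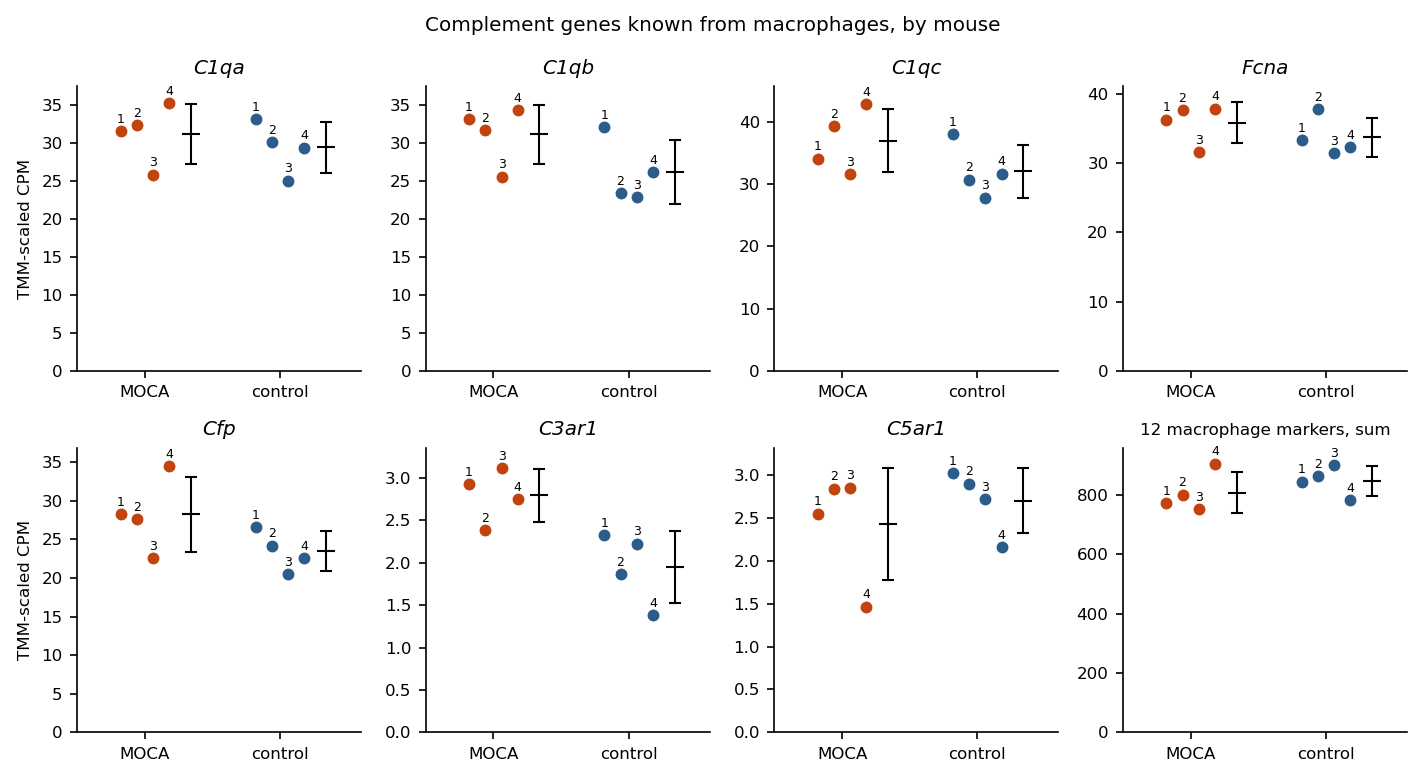
Complement genes known from macrophages, by mouse. Panels give TMM-scaled CPM from 0 with a numbered point per mouse and the mean ± SD of 4 mice, and the last panel the sum of 12 macrophage markers; the groups overlap in every panel except C3ar1, where the MOCA mice lie between 2.39 and 3.11 and the control mice between 1.38 and 2.32.

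The receptors were at the lower end of the range. C3ar1, the receptor of the C3a fragment, was 2.93, 2.39, 3.11 and 2.75 in MOCA replicates 1 to 4, against 2.32, 1.87, 2.22 and 1.38 in control replicates 1 to 4. The groups did not overlap, but the lowest MOCA and the highest control mouse were 37 and 40 reads, before scaling for depth. The log2 fold change was 0.37 (SE 0.13, limma adjusted p = 0.194). C5ar1, the receptor of C5a, averaged 2.42 ± 0.654 in MOCA and 2.70 ± 0.3803 in control livers, with MOCA replicate 4 lowest at 1.47 (log2 fold change -0.13, SE 0.16, adjusted p = 0.722). The members known mainly from macrophages and other myeloid cells were grouped after the values were seen, so their counts are a description only. Of C1qa, C1qb, C1qc, Cfp, Fcna, C3ar1 and C5ar1, 6 of 7 had a positive fold change, against 6140 of all 12008 tested genes. Their median log2 fold change was 0.20, against 0.01 over all tested genes, and none was called.

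In the lectin pathway none of the 6 members was called by limma, edgeR or DESeq2, and the groups overlapped for each. Only 1 of the 6, Masp2, had an unadjusted limma p under 0.05, on the lower side, where 8.05% of all genes had one. Mbl2, a mannose-binding lectin, averaged 454 ± 28.9 in MOCA and 419 ± 64.4 in control livers, and Mbl1, its relative, 123 ± 6.66 in MOCA and 133 ± 20.4 in control livers. Their log2 fold changes were 0.13 (SE 0.11, adjusted p = 0.583) and -0.10 (SE 0.10, adjusted p = 0.646), and without 1 mouse in turn they lay between 0.018 and 0.19 for Mbl2 and between -0.17 and -0.032 for Mbl1. Masp2, the protease that cuts C4 and C2 in this pathway, averaged 142 ± 2.52 in MOCA and 161 ± 14.0 in control livers (log2 fold change -0.17, SE 0.07, adjusted p = 0.266). Colec11 and Fcna, which bind sugars, and the protease Masp1 differed by log2 fold changes of -0.10, 0.09 and -0.09 (adjusted p between 0.513 and 0.647).

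The terminal pathway starts with Hc, which encodes C5. Its level was 417, 462, 439 and 418 in MOCA replicates 1 to 4, against 529, 507, 567 and 603 in control replicates 1 to 4. The groups did not overlap, and the log2 fold change was -0.34 (SE 0.08, limma adjusted p = 0.0676; DESeq2 adjusted p = 0.00190). Some inbred strains, NOD among them, are known to carry a deletion in Hc that leaves plasma without C5; the labels give no Hc genotype of these mice, and an RNA level does not show the protein.

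C8, a pore protein that acts after C5, is built of chains encoded by C8a, C8b and C8g. C8b, the beta chain of C8, was 47.7, 72.8, 89.5 and 66.0 in MOCA replicates 1 to 4, against 87.4, 94.2, 95.4 and 109 in control replicates 1 to 4. The groups overlapped only through MOCA replicate 3 (log2 fold change -0.51, SE 0.15, limma adjusted p = 0.144). C8a, the alpha chain, whose gene lies beside C8b on chromosome 4, averaged 225 ± 59.3 in MOCA and 253 ± 85.9 in control livers (log2 fold change -0.15, SE 0.23, adjusted p = 0.792). C8g, the gamma chain, averaged 276 ± 18.7 in MOCA and 294 ± 57.1 in control livers (log2 fold change -0.07, SE 0.12, adjusted p = 0.802). MOCA replicate 1 had the lowest C8a and C8b and the highest C8g of the MOCA mice, at 156, 47.7 and 303.

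C9, which polymerises into the pore, was 148, 166, 193 and 165 in MOCA replicates 1 to 4, against 167, 203, 265 and 308 in control replicates 1 to 4. Control replicate 1 alone lay within the range of the MOCA mice (log2 fold change -0.46, SE 0.16, limma adjusted p = 0.193). C6 averaged 15.5 ± 0.551 in MOCA and 14.6 ± 2.74 in control livers (log2 fold change 0.09, SE 0.11, adjusted p = 0.725). C7, which is known to be made largely outside hepatocytes, had 15, 8, 28 and 18 reads in MOCA replicates 1 to 4, against 12, 16, 13 and 14 reads in control replicates 1 to 4, and was not tested.

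Among the soluble regulators, Cfi, Serping1 and Vtn had groups that did not overlap. Cfi encodes factor I, which cuts C3b and C4b, and was 464, 517, 494 and 460 in MOCA replicates 1 to 4, against 546, 614, 602 and 659 in control replicates 1 to 4. Serping1 encodes the C1 inhibitor, and was 786, 778, 760 and 759 in MOCA replicates 1 to 4, against 829, 945, 959 and 1026 in control replicates 1 to 4. Vtn encodes vitronectin, which blocks pore insertion, and was 1811, 1861, 1812 and 1673 in MOCA replicates 1 to 4, against 1953, 2390, 2277 and 2526 in control replicates 1 to 4. In each of these genes control replicate 1 was the lowest control mouse and lay nearest to the MOCA mice. The log2 fold changes were -0.32 for Cfi (SE 0.08, limma adjusted p = 0.0855), -0.28 for Serping1 (SE 0.08, adjusted p = 0.125) and -0.35 for Vtn (SE 0.10, adjusted p = 0.122).

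Clu, which encodes clusterin, a chaperone that also binds the forming pore, averaged 1125 ± 55.1 in MOCA and 1319 ± 159 in control livers, with overlapping groups (log2 fold change -0.22, SE 0.10, adjusted p = 0.275). C4bp, the C4b-binding protein, was at 345 ± 25.2 in MOCA and 340 ± 21.0 in control livers (log2 fold change 0.02, SE 0.08, adjusted p = 0.926). C4b relative to C4bp was 4.50 to 5.90 in MOCA and 7.45 to 8.69 in control livers, without overlap. With C4bp nearly level, this ratio restates the C4b difference and is not a separate observation. The membrane regulators Cd55, Cd59a and Cr1l, which protect cells from their own complement, differed by log2 fold changes of 0.10, -0.13 and 0.0034 (adjusted p between 0.552 and 0.989). The 8 regulators held 3 of the 9 members in which all MOCA mice lay below the controls, as they did in 4.96% of all tested genes. Limma and edgeR called 0 of the 8, and DESeq2 called 3 lower, where it called 1.69% of all genes lower. An unadjusted limma p under 0.05 was found for 4 on the lower side, where 8.05% of all genes had one.

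The spread between mice also differed from gene to gene. The median coefficient of variation over the tested members was 8.38% in MOCA and 10.8% in control mice, beside 10.5% in MOCA and 10.9% in control mice over all tested genes. Serping1 varied by 1.74% in MOCA and 8.69% in control mice, Masp2 by 1.77% in MOCA and 8.73% in control mice, and C6 by 3.56% in MOCA and 18.7% in control mice. The order was the other way round in C1s1 (28.1% in MOCA and 8.84% in control mice), C8b (25.1% in MOCA and 9.57% in control mice) and C1ra (21.1% in MOCA and 7.25% in control mice), in each of which MOCA replicate 1 was lowest. These differences in spread were not tested. Control replicate 4 had the highest value of the 8 mice in 16 of the 37 members, among them C3, C4b, Hc, C8a, C8b, C9, Cfi, Serping1, Vtn and Clu. Those members were chosen for naming after their values were seen. How often control replicate 4 was highest over all genes was not counted, so the 16 of 37 may not be particular to complement.

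Of 26 further complement genes, 20 had a row and 16 were tested, and limma called none; 0 of 16 also passed with edgeR and 1 with DESeq2, which called 1.69% of all genes lower, while 4 had an unadjusted p under 0.05, all on the lower side, where 8.05% of all genes had one. C1s2 (values above) and Susd4 were among the 3 with the smallest p. Susd4, a membrane protein that binds C1q, averaged 1.13 ± 0.422 in MOCA and 2.09 ± 0.891 in control livers (log2 fold change -0.51, SE 0.21, adjusted p = 0.236).

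Of 16 genes that act upstream of hepatic complement, all were tested and limma called none; edgeR called 0 and DESeq2 1 (lower, against 1.69% of all genes). An unadjusted p under 0.05 was found for 1 on the higher and 2 on the lower side, against 9.42% and 8.05% of all genes, which is near that background. Il6ra, the interleukin-6 receptor, was 72.7, 67.3, 52.6 and 41.2 in MOCA replicates 1 to 4, against 81.5, 81.0, 86.7 and 93.7 in control replicates 1 to 4. Its groups did not overlap (log2 fold change -0.58, SE 0.15, limma adjusted p = 0.0976; DESeq2 adjusted p = 0.0140). Nfkb1, a subunit of NF-kappaB, averaged 30.1 ± 2.26 in MOCA and 24.7 ± 2.59 in control livers (log2 fold change 0.28, SE 0.09, adjusted p = 0.166), and Il1r1, the interleukin-1 receptor, 32.8 ± 8.39 in MOCA and 45.2 ± 5.16 in control livers (log2 fold change -0.48, SE 0.17, adjusted p = 0.189). Of 24 acute phase genes 1 was called lower, Itih3, at 603 ± 61.5 in MOCA and 958 ± 30.1 in control livers (log2 fold change -0.67, SE 0.09, adjusted p = 0.00778), against 0.266% of all genes, and none was called higher. DESeq2 called 2 of them lower, Itih3 and Itih4 (DESeq2 adjusted p = 0.00375), against 1.69% of all genes. An unadjusted limma p under 0.05 was found for 4 of the 24 on the lower and 1 on the higher side, against 8.05% and 9.42% of all genes. The other two with the smallest p were Itih4 (log2 fold change -0.39, adjusted p = 0.111) and Crp (0.27, adjusted p = 0.197).

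Marker sums of some cell types differed between the groups beside the complement genes. All 9 hepatocyte markers had a negative fold change, between -0.40 and -0.02, and Serpina1a and Trf had groups without overlap, while Alb, at 61797 ± 3989 in MOCA and 65245 ± 6800 in control livers, overlapped. The 8 sinusoidal endothelial markers summed to 482 to 502.3 in MOCA and 502.6 to 584 in control livers, without overlap, and 1 of the 8 had a positive fold change. The 6 erythroid markers summed to 472 to 525 in MOCA and 252 to 443 in control livers, without overlap, with Hbb-bs listed at 0 in all 4 MOCA and 3 of 4 control mice. Stellate cell and fibroblast markers (10 of 10 listed) summed to 477 to 590 in MOCA and 570 to 619 in control livers. Neutrophil markers (5 of 9 listed) summed to at most 5.31 in MOCA and 4.18 in control livers, adipocyte markers (2 of 7 listed) to at most 4.26 in both groups, and bile duct markers (5 of 5 listed) to 36.3 to 54.9 in MOCA and 40.5 to 49.5 in control livers. All 4 MOCA values lay below all 4 control values in 2 hepatocyte markers, 2 endothelial markers (Stab1 and Stab2) and 1 stellate cell marker (Reln). Over all tested genes 4.96% did so. In 1 erythroid marker, Hba-a1, all MOCA values lay above, against 5.5% of all tested genes. Limma and edgeR called no marker of these lists. DESeq2 called 2 hepatocyte markers and 1 stellate cell marker lower and 3 erythroid markers higher, and an unadjusted limma p under 0.05 was found for 2 hepatocyte, 3 endothelial and 2 stellate cell markers on the lower side and for 4 erythroid markers on the higher side. Over all genes DESeq2 called 1.69% lower and 1.85% higher, and the unadjusted limma p was under 0.05 for 8.05% on the lower and 9.42% on the higher side. The part of cell composition in the complement values was not tested.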

How the data were processed

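Per the labels' protocols, 200 ng of RNeasy-purified liver RNA went into MGIEasy rRNA depletion and directional library preparation. The submitters' processing notes name Trimmomatic 0.38, RSEM, Bowtie2 and edgeR and the build mm10, with no role for each; not given in the sources used here are strand setting and treatment of reads that match more than 1 gene. The authors deposited 1 table of scaled signal per gene symbol (normalised counts), 1 column per mouse. Dividing each column by its smallest step gave whole reads for 100% of values (tolerance 0.001), and the scaling equals edgeR's TMM factors recomputed from them. Depth per library stands in the report and no column was left out. Each listed gene had at least 8 reads over the 8 libraries. Replicate libraries differed from each other by more than sampling noise (chi-square over degrees of freedom 13.2 to 28.7).

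The main test was limma 3.58.1 (R 4.3.3) on log2(value + 1) with an eBayes trend, comparing MOCA with control without covariates, after a filter of at least 1 in 4 of 8 libraries, with Benjamini-Hochberg adjustment over 12008 genes. The labels number separate mice. edgeR 4.0.16 (quasi-likelihood) and DESeq2 1.42.0 ran on the recovered whole reads as alternatives. Other settings were pseudocounts, filters, scalings, eBayes options, library weights, a replicate block and leaving out each mouse. The test was checked on simulated reads. The members, gene lists and marker lists were chosen with earlier results of these data known, so their counts are descriptions. Every member with a row is named; of the other lists, called genes and the 3 with the smallest p, and marker lists are given as sums. The values of 1 gene of these other lists are not reported here. Positions and promoter windows are RefSeq's (GRCm38.p6, the assembly behind mm10; all 37 members with a row matched by symbol, 28 had a window). Lengths are of 1 GENCODE M21 transcript per gene, the principal coding one where annotated; another choice of transcript would move the values per length.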

Additional observations from a re-analysis of the deposited data

Results flagged for a closer look

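Of 74 pairs of a member and a group, 4 held a mouse far from the other 3 of its group by Dixon's test for groups of 4, and about 1 in 20, or 3.7, would do so by chance. All 4 were in MOCA replicate 1. C1rb was 89.8 there and 1.75 to 3.03 in the other MOCA mice. C1s1 was 163 there and 314 to 331 in the other MOCA mice, and C1ra was 193 there and 303 to 323 in the other MOCA mice. C8g was 303 there and 263 to 268 in the other MOCA mice, and within the range of the control mice.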

How the results depend on the processing

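Over all genes limma called 80 genes; 171 (132 higher) were called with columns scaled to equal sums, 51 lower with upper quartile scaling, 53 lower with robust eBayes and 425 (222 higher, 203 lower) with DESeq2, which also called 9 members lower, 1 of the further complement genes and 1 upstream gene. Without 1 mouse in turn, 28 to 77 genes were called (21 to 42 higher, 7 to 35 lower), 0 to 2 members were lower, 9 to 14 members had all MOCA values below all control values (14 without control replicate 1) and 1 to 2 had all above, against 5.97% to 8.40% and 6.63% to 8.54% of all genes; the counts of groups without overlap in these subsets were added after seeing the data. C4b was called in 2 of these 8 fits and Pglyrp2 in 3. The shared replicate numbers did not pair the mice (correlations of same-numbered deviations from -0.07 to 0.04, and no mouse correlated best with its own number). With the replicate block 30 genes were called (20 higher, 10 lower) and 0 members, with adjusted p = 0.0904 for C4b and 0.0518 for Pglyrp2. Of 753 values of single members under other settings 713 kept their direction and side of the threshold, 14 missed it, 12 passed it and 14 turned sign. Cr1l was -0.00024 with median of ratios scaling, -0.014 with upper quartile scaling and -0.0074 with library weights, where C4bp was -0.0079. Without 1 mouse in turn, log2 fold changes lay between -0.23 and 1.45 for C1rb, -0.28 and 0.047 for C8a, -0.18 and 0.042 for C8g, -0.20 and 0.023 for C5ar1, -0.071 and 0.086 for Cr1l, -0.018 and 0.063 for C4bp, 0.0091 and 0.17 for C1qa, and 0.15 and 0.35 for Cfp. The causes were not tested. Depth limits C7, C3ar1, C5ar1 and C1rb, which had 8 to 60 reads in most libraries.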
